A study of Mus musculus with 33 samples.

Results

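The cells described here were lung cells with macrophage features that carried mRNA of Spp1. A lung cell with at least 500 gene UMIs (unique molecular identifiers, each standing for 1 captured mRNA molecule), at least 200 detected genes and at most 15% mitochondrial UMIs was a member if it held at least 1 Spp1 UMI and reached a small UMI limit for 1 further gene. It also had to show fewer than 3 of 5 alveolar macrophage genes (Plet1, Ear1, Fabp1, Krt79 and Siglecf). Of 17926 lung cells that passed the quality limits, 589 were members (3.29%), among 81552 cells in the 33 samples of the whole series. The members were thus chosen by their UMIs of Spp1, the further gene and the alveolar macrophage genes, and those values are given only as a description.

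The study used SAMENT, a niche labelling method in which tumour cells carry an enzyme that attaches biotin to the cells they touch once a substrate is given. All 8 lung samples came from mice that received an intracardiac injection and an overnight substrate labelling of about 10 hours, so both groups share the injection and the substrate. Lung tissue was cut up and digested with collagenase, and its cells were sorted by biotin into a positive and a negative fraction, with 4 samples of each and 7342 and 10584 cells kept. The labels state neither the strain, age and sex of the mice nor the injected cell line, the number of mice per sample or whether a positive and a negative sample came from the same mouse. P-values therefore measure the spread between these samples, which may be partly technical. Samples are called positive 1 to positive 4 and negative 1 to negative 4 after their labels, and values for the 4 positive or the 4 negative samples are always given in that order.

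Spp1 encodes osteopontin, a secreted glycoprotein that binds integrins and CD44, and macrophages that make it are described in wound repair, fibrosis and tumours. The lung normally holds alveolar macrophages in the air spaces and interstitial macrophages in the tissue, and monocytes that enter from blood can take on macrophage features there. Pf4 and Ppbp encode chemokines best known from platelet granules, although macrophages can transcribe Pf4.

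Depth differed between the samples. The lung samples held 678 to 3081 kept cells and 4500782 to 24893464 UMIs each, with a median of 3135 to 9294 UMIs per kept cell. Members numbered 307, 127, 17 and 48 in the positive samples and 12, 16, 12 and 50 in the negative samples. Positive 1 alone held 52.1% of them, and 282 remained without it. The median member had 11527 UMIs, or 12006 without positive 1. In the smaller samples a few cells set the sums, which ranged from 91056 UMIs over the members of negative 3 to 3528353 in positive 1. The highest cell carried 62.7% of the Pf4 UMIs of negative 2, and the highest for Spp1 carried 53.7%, against at most 1.74% and 3.46% in positive 1.

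The macrophage-like label matched the members' transcripts. All 16 macrophage and myeloid genes that were listed appeared in at least 10% of members and 14 of them in at least 50%. Ctsb, a lysosomal protease, was detected in 100% of members, Lyz2 (lysozyme) in 97.1%, Cd68 in 92.4%, Csf1r (the receptor for the macrophage growth factor CSF1) in 82.2% and Adgre1 (F4/80) in 49.4%. No gene of the lists for NK cells, basophils and mast cells, epithelium, endothelium, fibroblasts or erythroid cells reached 10% of members. The T cell list had 1 such gene (Il7r, 44.99%), the B cell list 1 (Ighm, 16.3%) and the dendritic cell list 2, H2-Ab1 and H2-Eb1 of MHC class II. Of the neutrophil list, 8 of 10 genes reached 10%, but S100a8 was also found in 94.7% of the T cells of the positive samples and 92.8% of those of the negative samples (cells with Cd3e and Trac UMIs). The summed level of the neutrophil list ranged from 2982 to 17558 CPM (UMIs of a gene, or of a list of genes, per 1000000 UMIs) in members of the positive samples and from 2212 to 18628 in those of the negative samples. In T cells S100a8 stood at 10826 and 4888 CPM in the positive and negative samples, within or above the members' range of 938 to 9115. Retnlg, Ngp, Camp, Lcn2 and Ltf of the same list stood at 2399.6, 387, 125, 549 and 53.3 CPM in T cells of the positive samples, above the members of each of the 8 samples. Free RNA in the members was not modelled, and neutrophil genes are not read as expression here.

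The median member held 19 Spp1 UMIs (range 1 to 1014, quartiles 5 and 59). At the edge, 58 members had exactly 1 Spp1 UMI. An Spp1 UMI was also found in 12.6% and 6.50% of T cells of the positive and negative samples (cells of lower depth), 17.99% and 10.2% of gated monocytes and 48.3% and 48.1% of gated alveolar macrophages, so 1 UMI alone does not show expression. Just outside lay 176 cells that reached the limit for the further gene but had no Spp1 UMI, of which 74.4% had Pf4. A further 33 cells met both gene limits but showed 3 or more of the alveolar genes, all of them in positive samples. Among members, 505 showed 0 of those 5 genes, 68 showed 1 and 16 showed 2.

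Members made up a larger share of the biotin positive lung cells on average, with a spread that 1 positive sample widened. They were 9.99%, 5.35%, 1.40% and 7.08% of the kept cells in the positive samples and 0.435%, 0.635%, 0.540% and 1.62% in the negative samples. Positive 3 lay below negative 4, and the other 3 positive samples lay above every negative sample. The means were 5.95% ± 3.59 (SD, n = 4) and 0.808% ± 0.549 (SD, n = 4), a difference of 5.15 percentage points. An exact two-sided permutation test gave p = 0.0571 (adjusted p = 0.157 over 11 measures compared between the sorts), where the smallest p that 4 against 4 samples allow is 0.0286. The exact 95% binomial intervals, which cover counting error only, were 8.95% to 11.1% in positive 1, 0.816% to 2.23% in positive 3 and 1.21% to 2.13% in negative 4.

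**Figure D1:**
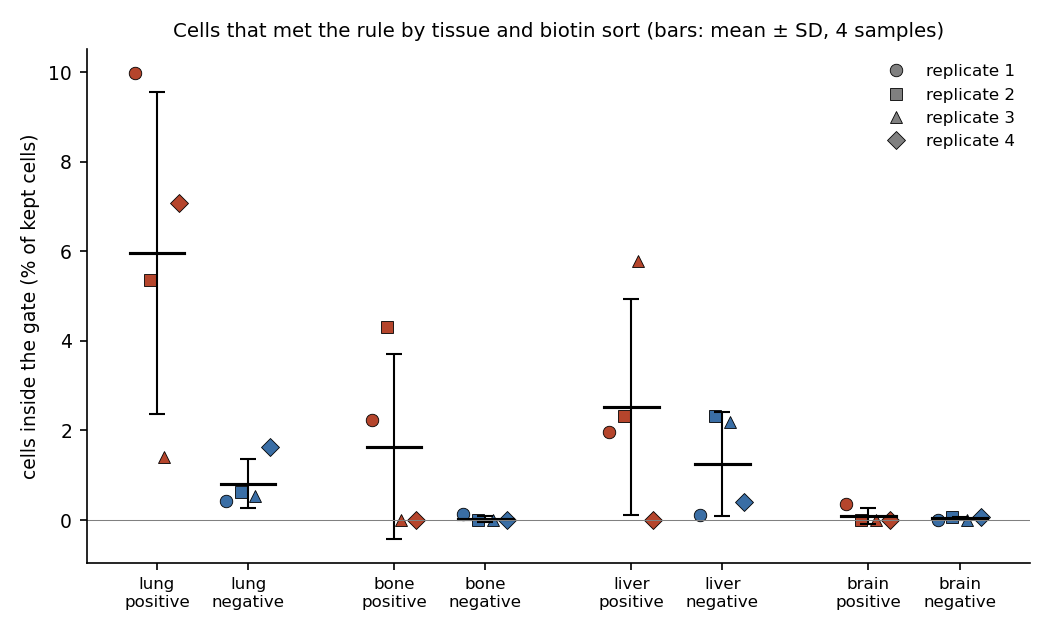
Share of kept cells that met the rule for members (vertical axis, percent) in each sample of lung, bone, liver and brain, by biotin sort. Symbols are samples marked by replicate number, and bars with whiskers are the mean ± SD of 4 samples; in lung the positive samples span 1.40% to 9.99% and the negative samples 0.435% to 1.62%.

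Between samples of the same number the positive sample exceeded the negative one by 9.55, 4.72, 0.857 and 5.46 percentage points for numbers 1 to 4, so the sign was the same in 4 of 4 pairs. The positive sorts also differed from the negative ones in other cells. Alveolar macrophages, gated on at least 3 of the 5 alveolar genes, numbered 1334, 1829, 434 and 93 in the positive samples and 5, 21, 0 and 1 in the negative samples. With those cells taken out of the denominator, members were 17.6%, 23.3%, 2.17% and 8.21% of the positive cells and 0.435%, 0.641%, 0.540% and 1.62% of the negative ones. Every positive sample then lay above every negative sample, with a difference of 12.03 percentage points (exact p = 0.0286, unadjusted). With all cells thinned to 2000 UMIs the difference was 3.67 points (exact p = 0.0286, unadjusted); 5.58% of the positive cells and 12.4% of the negative cells were too shallow for that and were left out.

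Cells that met the same rule were found outside the lung as well, unevenly. In bone they numbered 45 (2.24% of kept cells) in positive 1 and 44 (4.31%) in positive 2, and 0 in positive 3 and positive 4, with 4, 0, 0 and 0 in the negative bone samples. In liver the positive samples held 24 (1.97%), 24 (2.32%), 43 (5.79%) and 0 such cells, where the last sample had only 94 kept cells, so that a count of 0 allows a share of up to 3.19% (3 counts). The negative liver samples held 4 (0.119%), 58 (2.33%), 34 (2.19%) and 5 (0.394%). In liver the sorts thus overlapped. All 8 brain samples together held 5 such cells, and a pooled bone sample of the series, labelled IIA and made with a 5′ rather than a 3′ kit, held 331 of 26186 (1.26%). Pf4 was detected in 90.3% of the lung members, 79.2% of the liver cells, 77.4% of the intracardiac bone cells and 88.8% of the pooled bone cells. Ccl24, an eosinophil-attracting chemokine, was detected in 60.6%, 45.3%, 25.8% and 18.4%, and Ccr2, the receptor through which monocytes leave the marrow, in 59.1%, 80.2%, 51.6% and 30.2%. Depth differed between these sets, with medians of 11527, 8134, 12550 and 6257 UMIs per cell, and no test was made between tissues because lung was picked with these values in view.

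Chemokine transcripts were found in many members. Levels from here on are CPM over the summed UMIs of the members of a sample, and a detection rate is the share of all 589 members with at least 1 UMI. Of the 24 chemokine and chemokine receptor genes listed, 20 were detected in at least 10% of members and 16 in at least 50%. Pf4, which the rule did not use, was detected in 90.3% of members, in 94.8%, 89.8%, 88.2% and 93.8% of those in the positive samples and in 83.3%, 50%, 66.7% and 82.0% of those in the negative samples. T cells of the same samples had a Pf4 UMI in 3.16% (positive) and 2.85% (negative), with a median of 3840 and 3381 UMIs per T cell against 12049 and 8178 per member.

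The level of Pf4 in members was 10144, 10197, 6929 and 5347 CPM in the positive samples and 12861, 3366, 4382 and 3453 in the negative samples. Negative 1 was the highest of all 8 samples and negative 2 the lowest, so the sorts overlapped. In T cells the Pf4 level was 29.8 and 9.81 CPM. Ppbp, which encodes the precursor of platelet basic protein, was less widespread, in 38.03% of members and 22.3% of those outside positive 1. Its level was 1445, 227, 536 and 421 in the positive samples and 1907, 403, 0 and 396 in the negative samples. Positive 1 and negative 1 were the 2 highest, and negative 3 had no Ppbp UMI in 12 members.

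The other platelet genes were nearly absent. Of the 17 genes of the platelet and megakaryocyte list, 9 had no UMI in any member, among them Gp9, Gp1ba, Gp1bb, Gp5, Gp6 (surface glycoproteins), Tubb1, Alox12 and Mmrn1. Itga2b, the platelet integrin subunit, was detected in 1.02% of members. The summed level of the list ran from 5778 to 11600 CPM in the positive samples and from 3810 to 14768 in the negative samples, and Pf4 and Ppbp made up nearly all of it.

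The monocyte-attracting chemokines Ccl2 and Ccl7 were detected in 82.9% and 66.04% of members, or 74.5% and 47.9% without positive 1. Ccl2 stood at 4509, 906, 3309 and 939 CPM in the positive samples and 5761, 508, 2943 and 3665 in the negative samples. Ccl24 stood at 1191, 394, 259 and 250.3 in the positive samples and 4271, 1093, 1867 and 148 in the negative samples. In both genes the samples of 1 sort differed widely among themselves, and the sorts overlapped. The neutrophil-attracting chemokines Cxcl2, Cxcl3 and Cxcl1 were detected in 96.4%, 73.01% and 63.8% of members. Cxcl3 stood at 3441, 559.8, 2340.3 and 1126 in the positive samples and 6098, 947, 3635 and 4489 in the negative samples, lowest in positive 2. Ccl6 and Ccl9, which macrophages make in bulk, were each detected in about every member (98.8% and 98.8%). The T cell-attracting, interferon-induced chemokine Cxcl10 was detected in only 14.6%.

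Polyamine genes were unevenly detected in members. Of the 16 genes of the polyamine and amino acid list, 12 were detected in at least 10% of members and 4 in at least 50%. Odc1, which makes the polyamine putrescine, was detected in 65.03%, or 48.2% without positive 1. Sat1, which acetylates polyamines, was in 92.7%, but the spermidine and spermine synthase genes Srm and Sms only in 24.96% and 31.2%. The cationic amino acid transporter gene Slc7a2 was detected in 28.4%, and Nos2, which makes nitric oxide, in 14.8% with levels of 6.78 to 138 CPM across the 8 samples.

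Spp1 stood at 4380.2, 3768, 5176 and 3996 CPM in the positive samples and 1835, 3155, 1296 and 2942 in the negative samples; every positive sample lay above every negative one, which is only described because Spp1 chose the cells. Of the 20 genes of the osteopontin and matrix list, 19 were detected in at least 10% of members. Thbs1 (thrombospondin 1, a matrix protein that activates TGF-beta) was detected in 95.1%, Fn1 (fibronectin) in 95.4%, Tgfbi in 93.5%, Ecm1 in 94.2%, and Cd44, an osteopontin receptor, in 94.9%. Thbs1 stood at 5395, 2883, 4052 and 2057 in the positive samples and 6234, 4634, 7819 and 3809 in the negative samples, lowest in positive 4 and highest in negative 3. The metalloproteinase genes were carried by fewer members, with Mmp14 in 61.97%, Mmp19 in 54.8%, Mmp8 in 31.7%, Mmp9 in 30.7% and Mmp12 in 14.3%.

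Of the 15 coagulation and fibrinolysis genes listed, 12 were detected in at least 10% of members and 3 in at least 50%. F13a1 (factor XIII A, which crosslinks fibrin) was detected in 86.4% of members, Plaur (the urokinase receptor) in 76.6%, F10 (factor X) in 69.8% and F7 (factor VII) in 48.9%. The urokinase gene Plau was detected in 11.2%, Tfpi (an inhibitor of tissue factor) in 10.2%, and F3 (tissue factor) in 10.4%, or 3.90% without positive 1.

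Glycolysis and hypoxia genes were broadly present. Of 27 such genes in the files, 25 were detected in at least 10% of members and 18 in at least 50%. The glycolytic enzymes Pkm, Ldha, Aldoa and Pgk1 were detected in 99.2%, 96.8%, 97.3% and 95.8%, and the hypoxia-induced genes Hilpda, Bnip3 and Vegfa in 87.6%, 64.7% and 66.6%. Vegfa, the main angiogenic growth factor, stood at 267, 143, 127 and 183 CPM in the positive samples and 321, 205, 450.3 and 358 in the negative samples, with the lowest values in positive 3 and positive 2. Of the 14 iron and oxidative stress genes listed, 13 were detected in at least 10% of members and 8 in at least 50%. Hmox1, which breaks down haem, was detected in 87.8% and stood at 2035, 2869, 2075 and 1426 in the positive samples and 593, 1677, 121 and 1126 in the negative samples. Only negative 2 exceeded the lowest positive sample. The iron transporter gene Slc40a1 (ferroportin) was detected in 10.2%.

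Lipid handling and lysosomal genes filled another group. All 17 genes of the Trem2 lipid-associated list and all 17 of the scavenger and lysosome list were detected in at least 10% of members, 13 of each in at least 50%. Apoe was detected in 96.8%, Trem2 (a lipid-sensing receptor) in 76.1%, Fabp5 (a fatty acid chaperone) in 66.4%, Msr1 (a scavenger receptor) in 93.04% and Gpnmb in 26.99%. Positive 2 stood apart in this group. Its members reached 3304 CPM of Fabp5 and 653 of Gpnmb, against at most 947 and 109.8 in the other 7 samples. They were lowest of all 8 samples in the monocyte genes Vcan (70.99), Ccr2 (43.4) and Plac8 (21.7). Positive 2 also held the largest share of alveolar macrophages, 1829 of 2373 kept cells, and the alveolar gene Ear2 was highest in its members (77.8 CPM); the part of free alveolar RNA in the members' values was not tested.

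Interstitial macrophage genes were unevenly detected. Of the 12 listed, 10 were detected in at least 10% of members and 5 in at least 50%. C1qa, C1qb and C1qc, the chains of complement C1q, were detected in 54.7%, 59.9% and 53.1%. The haemoglobin receptor gene Cd163 was in 28.7%, the folate receptor gene Folr2 in 37.9%, Tmem119 in 18.7% and Cx3cr1 in 12.6%, and Cd209f had no UMI. Mrc1 (the mannose receptor), which stands on the alveolar list, was in 79.3% of members and 99.3% of alveolar gate cells of the positive samples. C1qb stood at 689, 1713, 1712 and 2151 CPM in the positive samples and 833, 1408, 516 and 716 in the negative samples, and positive 1 lay below 3 of the 4 negative samples. Classical monocyte genes were detected in many members too, with Ccr2 in 59.1%, Vcan in 65.7%, Plac8 in 44.8% and Ly6c2 in 24.1%. A Ccr2 UMI was also found in 21.1% of T cells of the positive and 21.6% of those of the negative samples, at lower depth.

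Inflammatory genes varied more between samples than most groups. Il1b (interleukin 1 beta) was detected in 86.4% of members and stood at 5789, 747, 2317 and 962 CPM in the positive samples and 9535, 2688, 3492 and 2016 in the negative samples. Negative 1 and positive 1 were the highest, as they were for Ppbp. Ptgs2 (cyclooxygenase 2) was detected in 67.9%, Nlrp3 in 70.3%, Tnf in 56.03% and Il6 in 31.6%. Without positive 1 these shares were 50%, 53.5%, 47.5% and 15.2%. Interferon-stimulated genes were rarer. Rsad2, an antiviral protein, was detected in 11.5% of members, and 1 cell of positive 3 held all 182 Rsad2 UMIs of that sample. Each gene of the MHC class II list was in under 50% of members apart from the invariant chain gene Cd74 (57.9%) and the protease gene Ctss (98.1%); H2-Aa was in 29.7%. Mki67, a marker of dividing cells, was in 15.4%. All 13 immediate early and heat shock genes listed were detected in at least 10% of members, and their summed level ran from 7685 to 8489 CPM in the positive samples and from 6354 to 9946 in the negative samples.

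Genes of alternative activation, the state that type 2 cytokines induce, were mixed. Of 19 such genes in the files, 10 were detected in at least 10% of members and 6 in at least 50%. Il4ra, a chain of the interleukin 4 receptor, was in 69.6%, and the transglutaminase gene Tgm2 in 74.7%. Chil3, a chitinase-like protein of alveolar macrophages and monocytes, was in 80.8%, but a Chil3 UMI was also found in 34.7% of T cells of the positive and 33.7% of those of the negative samples. Of 23 nuclear receptor and myeloid transcription factor genes, 19 were detected in at least 10%, among them Cebpb in 98.6%, Spi1 (PU.1) in 86.4% and Maf in 84.4%.

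**Figure D2:**
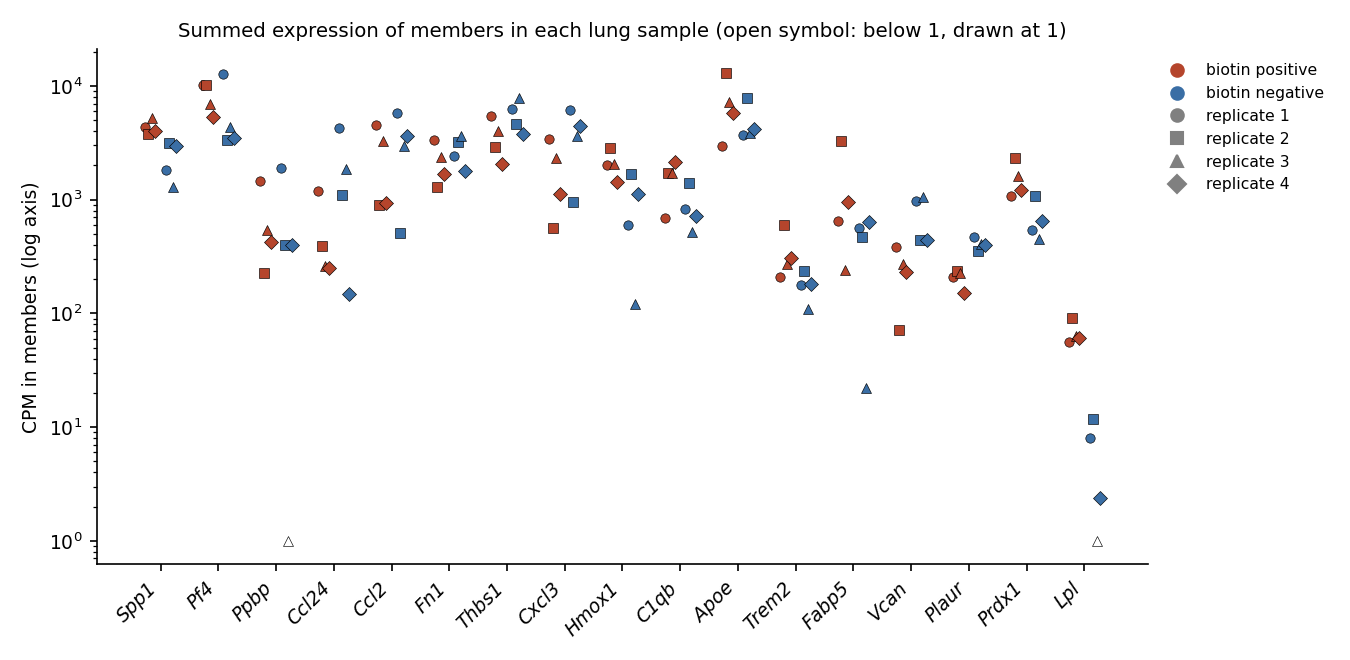
Level of selected list genes in members (log axis, CPM over the summed UMIs of a sample's members), with 1 symbol per sample coloured by biotin sort. The Ppbp points of replicate 1 lie highest in both sorts, and the Lpl points of the sorts do not overlap.

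Between sorts, the chosen test called 1 gene in the summed profiles of the members. Lpl, lipoprotein lipase, which releases fatty acids from triglyceride-rich particles, was detected in 19.2% of members. It stood at 55.8, 90.4, 63.4 and 60.4 CPM in the positive samples and 8.01, 11.7, 0 and 2.39 in the negative samples. All 4 positive samples lay above all 4 negative ones, with a log2 fold change of 3.65 ± 0.51 (SE) and an adjusted p of 0.0442 by edgeR's quasi-likelihood test over 3532 genes. The call was the only 1 of those 3532 (0.0283%), with 228 genes at an unadjusted p under 0.05. Lpl passed the filter on low counts only through the positive samples, so the call is not read as support for a difference. It did not hold in any of the 8 fits that left out 1 sample: the log2 fold change was 3.15 to 4.25 and the adjusted p 0.0911 to 0.446 in 6 of them, and without positive 2 or positive 4 Lpl fell under the filter on low counts and was not tested.

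The UMIs behind Lpl were few. Members of the positive samples held 197, 200, 11 and 42 Lpl UMIs and those of the negative samples 1, 2, 0 and 1, and 1 cell held 10 of the 11 in positive 3. Lpl was also a gene of alveolar macrophages, detected in 99.7% of the alveolar gate cells, which were plentiful in the positive samples and nearly missing in the negative ones. T cells of the positive samples held Lpl at 101 CPM and those of the negative samples at 5.98, as means over samples. They numbered only 42, 5, 17 and 31 in the positive samples, against 421, 85, 302 and 315 in the negative samples. The mean T cell levels thus showed the same direction, resting on few positive cells. The edgeR test between sorts in T cells, over samples with at least 10 of them, called 0 of 4304 genes. The part of free alveolar RNA in the members' Lpl was not tested further. Leaving out the members with the highest doublet scores, the top 5% of cells of each sample, also ended the call (log2 3.42, adjusted p = 0.0574), as did a stricter rule with 2 Spp1 UMIs and a higher limit for the further gene (log2 3.82, adjusted p = 0.852), which also left out negative 1 and negative 3 with 9 members each. With no filter on low counts, 98 of 15398 genes passed, 67 higher and 31 lower in the positive samples.

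No other listed gene passed the chosen test, which left the replicate number out. With that number as a block, edgeR called 22 of the 3532 genes. Among them were Vcan (adjusted p = 0.0241), F10 (0.0340) and Prdx1 (0.0342). The labels do not state what the number stands for. Of the 220 listed genes that could be tested, gate genes left out, 4 lay higher in every positive than in every negative sample and 6 lay lower. Over all 3532 genes, 67 (1.90%) lay higher in every positive sample and 73 (2.07%) lower, so the shares among listed genes were near those of all genes. Beside Lpl the 3 higher ones were Cxcl16 (a scavenger receptor and chemokine), Prdx1 (a peroxidase) and Slc7a2, and the 6 lower ones were Plaur, F10, Vcan (versican), Cd86 (a T cell costimulator), Cebpb (a transcription factor) and Havcr2 (TIM-3). Prdx1 stood at 1079.8, 2347, 1619.8 and 1204 CPM in the positive samples and 537, 1087, 450.3 and 649 in the negative samples. Positive 1 lay just under negative 2 in raw level, and the groups separated only after scaling by TMM, where the log2 fold change was 1.17 ± 0.32 (SE, adjusted p = 0.610 by edgeR).

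Plaur stood at 208, 236, 225 and 149.6 CPM in the positive samples and 465, 351, 406 and 399 in the negative samples, a log2 fold change of -1.03 ± 0.23 (SE) with an adjusted p of 0.520 by edgeR, the lowest after Lpl among listed genes. Its 4 negative samples lay between 351 and 465, all above the positive ones. Vcan stood at 385, 70.99, 271 and 230.2 in the positive samples and 978, 438, 1054 and 441 in the negative samples, with a log2 fold change of -1.63 ± 0.48 (SE, adjusted p = 0.610 by edgeR). The nearest samples of the 2 sorts were positive 1 and negative 2, and positive 2 lay far below the rest. Cebpb stood at 1867, 1394, 1666 and 1424 in the positive samples and 2796, 2402, 2438 and 2469.8 in the negative samples, a log2 fold change of -0.71 ± 0.22 (SE, adjusted p = 0.610 by edgeR). Negative 1 lay highest, and the other 3 negative samples were between 2402 and 2469.8.

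Read as lists, the direction of fold changes differed between gene groups; after Lpl the lowest adjusted p of a listed gene was 0.520 (edgeR). Over all tested genes the median log2 fold change was 0.0056 and 50.9% lay above 0. All 10 classical monocyte genes tested lay below 0 (median -0.99) and all 9 interstitial macrophage genes above 0 (median 0.72). Of the glycolysis and hypoxia list 24 of 25 lay below 0 (median -0.44), Hmox1 (1.21 ± 0.53) being the exception. Of the iron and oxidative stress list 11 of 12 lay above 0 (median 0.78), of the scavenger and lysosome list 12 of 14 (median 0.53) and of the Trem2 lipid-associated list 12 of 16 (median 0.78). Of the inflammatory list 15 of 18 lay below 0 (median -0.40) and of the chemokine list 15 of 21 (median -0.27). The lists for MHC class II (6 of 7, median 0.35) and the cell cycle (5 of 5, median 0.46) lay mostly above 0, and those for growth factors (6 of 7, median -0.43), checkpoint ligands (7 of 10, median -0.39) and interferon-stimulated genes (5 of 7, median -0.28) mostly below. The lists for nuclear receptors and myeloid factors (12 of 15), immediate early and heat shock genes (9 of 13, median -0.24 for both) and neutrophils (5 of 6, median -0.34) also lay mostly below 0. Of the others, 10 macrophage and myeloid genes lay above 0 and 6 below, 7 and 10 of the matrix list, and 3 and 4 each of the polyamine, coagulation and alternative activation lists. Gated monocytes moved with the sort as well, numbering 60, 6, 47 and 26 in the positive samples and 249, 238, 474 and 281 in the negative samples, and the part of their free RNA in the members was not tested. Apart from Lpl, 0 genes in any of these lists passed the test without a replicate block, and genes of 1 list share the same 8 samples. With the block 22 genes were called by edgeR, 9 higher and 13 lower. They included Vcan, Plac8 and Hp of the monocyte list as lower and Ms4a7 of the interstitial list as higher.

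**Figure D3:**
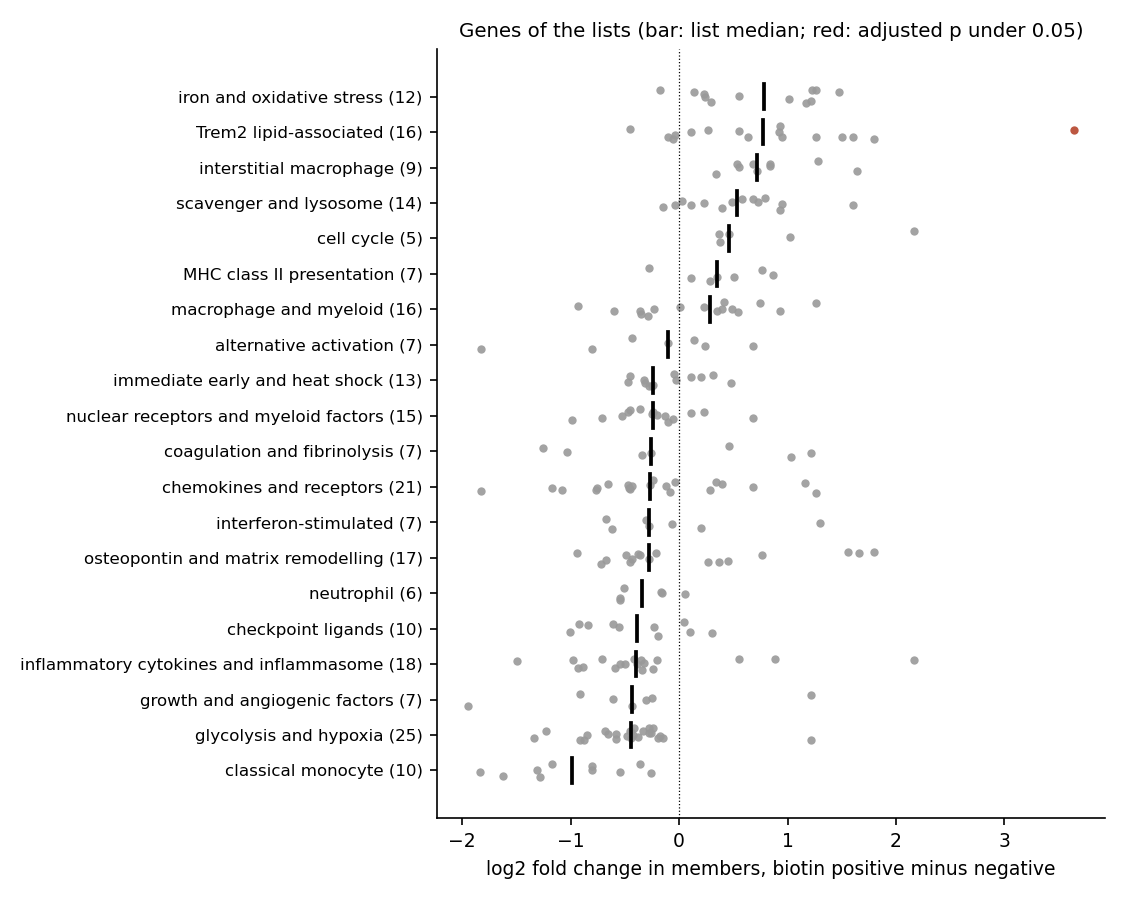
Log2 fold change (biotin positive minus negative, members only) of the tested genes of most lists with at least 5 such genes, grouped by list, with the median of a list drawn as a line. Classical monocyte genes all lie below 0 (median -0.99) and interstitial macrophage genes all above it (median 0.72). Lpl is the only gene past the threshold in this fit, which had no replicate block.

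Per-cell measures gave the same picture of differences within the spread of 4 against 4 samples. Members had a median of 11140, 16323, 9850 and 11928 UMIs in the positive samples and 10167, 8482, 6488 and 7926 in the negative samples. Only positive 3 fell below the highest negative sample, and the exact permutation p was 0.0571 (adjusted 0.157). To take this depth gap out, each member was thinned to 2000 UMIs before shares of members with a gene were compared. Pf4 was then detected in 90.1%, 78.0%, 82.4% and 85.1% of members in the positive samples and in 83.3%, 31.3%, 50% and 60% in the negative samples. The means were 83.9% ± 5.09 and 56.1% ± 21.7 (SD, n = 4 each), with an exact permutation p of 0.0857 (adjusted 0.157) and overlap through negative 1.

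C1qa was detected in 48.1% ± 5.71 of thinned members of the positive samples and 34.7% ± 10.8 of those of the negative samples, and Trem2 in 42.6% ± 14.6 and 24.8% ± 9.14 (SD, n = 4 each), both with an exact permutation p of 0.0857 (adjusted 0.157). The difference in C1qa, 13.4 percentage points, was 8.51 without negative 4, and that in Trem2, 17.8 points, was 10.8 without positive 2. Mrc1 was detected in 53.0% ± 18.7 and 34.7% ± 19.0 (exact permutation p = 0.257, adjusted 0.354). Ccr2 went the other way in the means, 32.6% ± 20.5 and 51.0% ± 11.97 (exact permutation p = 0.2, adjusted 0.314), and the difference of -18.4 points was -9.11 without positive 2. The positive samples ranged from 4.72% in positive 2 to 52.9% in positive 3 for Ccr2, and positive 1 and positive 3 lay above the lowest negative sample. Ppbp was detected in 20.3% ± 14.01 and 14.96% ± 13.8 (exact permutation p = 0.571, adjusted 0.698), and without positive 1 the difference changed sign to -1.61 percentage points. No measure passed after adjustment.

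Next, members were set beside 3 other gated cell sets of the same samples, as a description with no test because the rule takes part in defining the contrast. The alveolar gate held 3717 cells, a monocyte gate (at least 1 UMI each of Ly6c2, Ccr2 and Vcan) 1381, and a C1q gate (at least 2 UMIs each of C1qa and C1qb, and Csf1r) 238, in each case without the members. Values are log2 differences of CPM, members minus the other cells, computed within each sample that had 10 cells of both and given as the median with the range over 5 samples (alveolar) or 7 samples (monocyte and C1q).

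Against alveolar macrophages, members were higher in most chemokine and interstitial macrophage genes. Of 7813 genes compared, 14.5% were higher in members in all 5 samples and 29.3% lower, and the median over all genes was -0.20. Ccl24 differed by 7.77 (6.22 to 8.60), Pf4 by 6.59 (4.73 to 9.35), Ccl7 by 6.27 (3.12 to 8.19), the C3a receptor gene C3ar1 by 6.19 (4.93 to 8.53), Thbs1 by 6.04 (2.89 to 7.83) and Mmp14 by 5.85 (4.21 to 6.05). C3ar1 was detected in 85.7% of members and 1.86% of the alveolar cells. Of the chemokine list 19 of 20 genes were higher in all 5 samples (median 3.59), and of the interstitial macrophage list 10 of 10 (median 4.62). The lipid droplet gene Cidec, at -7.18 (-8.19 to -5.53), and Krt19, at -5.51 (-7.60 to -4.00), were among the genes lower in members. Lpl was lower in members too, at -5.38 (-6.60 to -4.59).

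Against monocytes, 11.8% of 7326 genes were higher in members in all 7 samples and 7.59% lower, with a median over all genes of 0.09. Pf4 differed by 8.47 (3.27 to 10.95), the podoplanin gene Pdpn by 5.91 (4.03 to 6.42), Ccl24 by 5.78 (2.89 to 8.02), C1qa by 5.41 (2.76 to 7.73), Folr2 by 5.05 (3.12 to 6.60) and Mrc1 by 4.91 (2.6 to 5.82). C1qa, Folr2 and Mrc1 are genes of tissue macrophages. Of the interstitial macrophage list 9 of 10 genes were higher in all 7 samples (median 3.47), and of the chemokine list 14 of 20 (median 2.57). Among the genes lower in members were Plac8, at -3.04 (-3.91 to -1.49), and Chil3, at -2.57 (-3.88 to -1.78), and of the classical monocyte list 6 of 10 were lower in all 7 samples, some of which defined the gate.

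Against C1q macrophages the differences were smaller. Of 7562 genes, 2.20% were higher in members in all 7 samples and 5.42% lower, with a median over all genes of -0.13. Cxcl3 differed by 3.96 (3.21 to 9.03), Pf4 by 2.89 (1.52 to 6.12), Ccl24 by 2.84 (0.59 to 8.07), Hmox1 by 2.6 (0.68 to 4.34), Bnip3 by 2.54 (1.37 to 4.28), Il6 by 2.07 (0.76 to 3.82) and Thbs1 by 1.73 (1.00 to 3.40). Pf4 was detected in 90.3% of members and 51.7% of the C1q cells. The genes lower in members were led by MHC class II, with H2-Eb1 at -3.53 (-4.14 to -1.01), H2-Aa at -3.30 (-3.68 to -0.77), H2-Ab1 at -2.92 (-3.84 to -0.12) and Cd74 at -2.52 (-3.28 to -0.58). All 8 MHC class II genes compared were lower in members in all 7 samples (median -2.35). Axl, a receptor for uptake of dying cells, was also lower, at -2.09 (-3.87 to -1.55).

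The glycolysis and hypoxia list was on the high side in members beside each of the 3 sets. Of the 25 genes compared, 21 were higher in every sample against alveolar macrophages (median 2.39), 20 against monocytes (median 1.54) and 17 against C1q macrophages (median 0.96). Matrix genes were higher in every sample in 12, 9 and 3 of 18. Since 52.1% of members came from 1 sample, each sample was given the same weight in these medians.

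**Figure D4:**
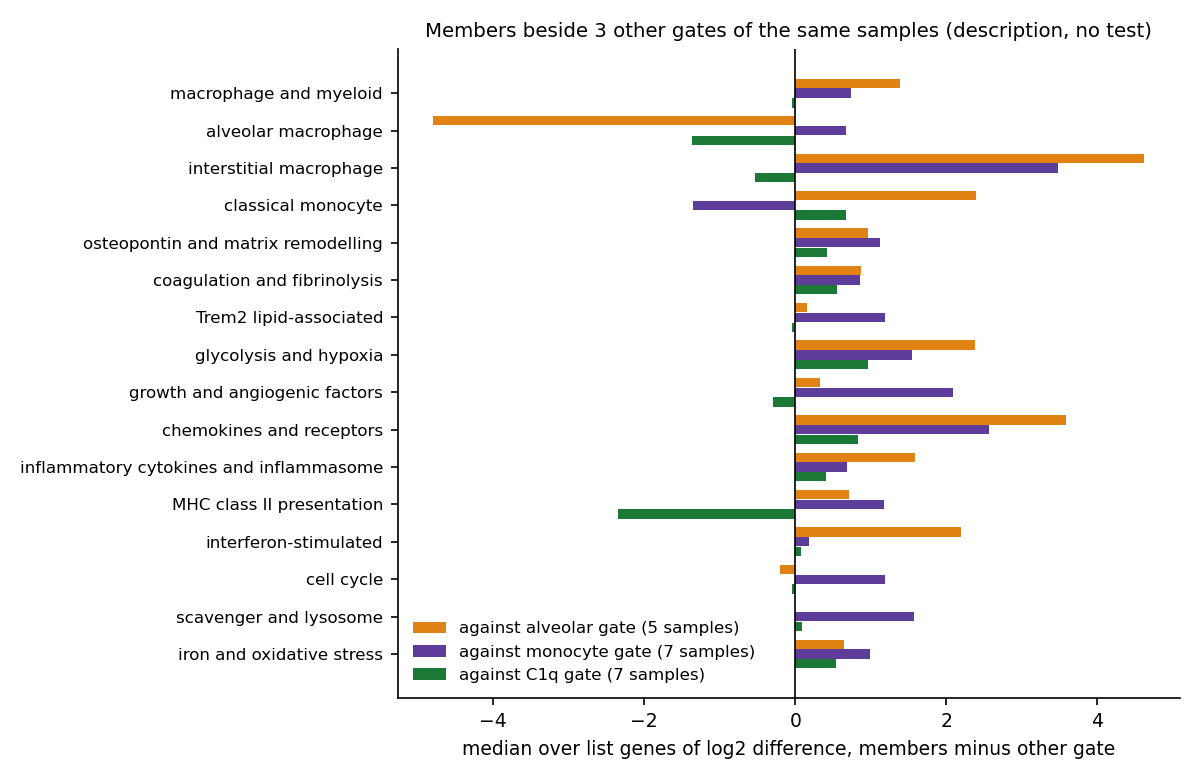
Median over samples of the log2 difference in CPM between members and 3 other gated cell sets (alveolar, monocyte, C1q), with each bar the median over the compared genes of a list. The chemokine bar is at 3.59 against alveolar macrophages, and the MHC class II bar is at -2.35 against C1q macrophages.

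Members also differed among themselves. After thinning to 2000 UMIs, a C1q UMI of any chain was found in 54.5%, 70.9%, 76.5% and 51.1% of members in the positive samples and in 41.7%, 43.8%, 50% and 30% in the negative samples. Positive 1, 2 and 4 and negative 4 had at least 10 members with and 10 without C1q, and values below are mean UMIs per thinned member in that order. Thbs1 was 10.3, 5.53, 4.92 and 5.33 in members with C1q and 13.8, 11, 8.96 and 9.03 in those without, lower with C1q in 4 of 4 samples (median log2 difference -0.80). Cxcl3 was 6.50, 1.57, 1.79 and 6.47 with C1q and 9.12, 2.51, 6.61 and 9.71 without, also lower in 4 of 4 (median -0.61). Chil3 (median -1.18), Vcan (-0.89), Cxcl2 (-0.61), Hilpda (-0.41), Hmox1 (-0.28) and Ccl2 (-0.24) went the same way in 4 of 4.

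Other genes were higher in members with C1q. Apoe was 6.74, 29.8, 14.4 and 9.73 with C1q and 5.62, 16.2, 8.65 and 8.37 without, higher in 4 of 4 samples (median 0.49). Cd163 (median 1.01), Trem2 (0.66), Ms4a7 (0.60) and the lysosomal protease gene Lgmn (0.41) were higher in 4 of 4 too, though for Trem2 by only 0.03 in positive 1. Cd163 was near the floor, at 0.17 UMIs with C1q and 0 without in positive 4, and 0.2 and 0 in negative 4. Its log2 difference there depends on the 0.1 added to each mean. Ms4a7 was 0.13 with and 0.11 without C1q in negative 4. Spp1 did not separate the 2 kinds of member in 1 direction, with 8.32, 6.58, 8.83 and 7.07 UMIs with C1q and 9.20, 12.7, 8.52 and 5.49 without (median -0.05). The genes were picked from the data after the split was seen, so no test was made.

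**Figure D5:**
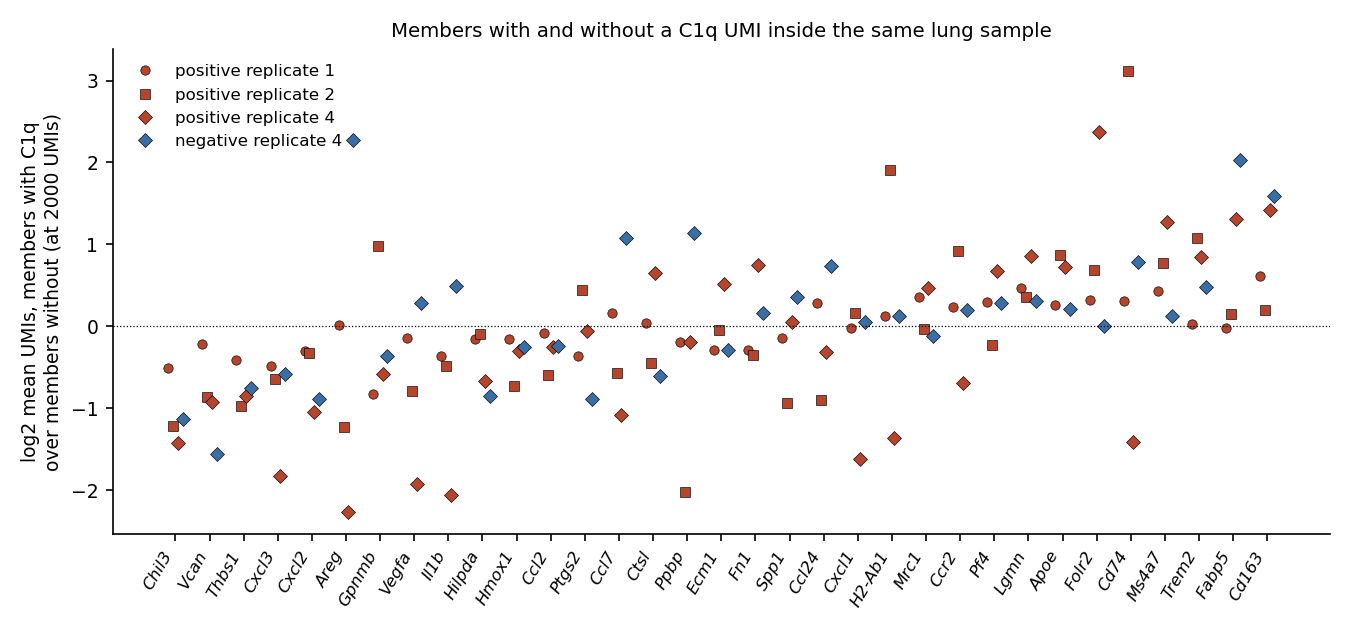
Log2 difference of mean UMIs per member thinned to 2000 UMIs, members with a C1q UMI minus members without, for selected genes in the 4 samples with at least 10 of each. Chil3, Vcan, Thbs1 and Cxcl3 lie below 0 in all 4 samples and Apoe and Cd163 above 0, while Spp1 lies near 0 in the median.

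Across the thinned members of 1 sample, the rank correlation (Spearman's rho) between genes describes which transcripts went together, given here without a test as the median over the same 4 samples; the cells of a sample share its library and, after thinning, its depth. C1qa and C1qb had a rho of 0.75. Among other pairs the highest were Cxcl3 with Thbs1 (0.52, range 0.34 to 0.70), Pf4 with Mrc1 (0.46, 0.36 to 0.55) and Cxcl3 with Ccl2 (0.45, 0.43 to 0.48). The rho of Spp1 was 0.030 (-0.067 to 0.085) with Pf4, 0.034 (-0.38 to 0.12) with Thbs1, 0.085 (-0.19 to 0.27) with Fn1 and 0.014 (-0.029 to 0.070) with Ecm1. It was 0.155 (-0.083 to 0.27) with Ctsl and 0.146 (-0.067 to 0.24) with Hmox1, and -0.075 (-0.24 to 0.035) with C1qa. Spp1 chose the cells, so the rule cuts its range among them.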

How the data were processed

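The data were single-cell counts of 8 lung samples from mice, 4 biotin positive and 4 biotin negative, with the other 25 samples of the series used only for the tissue comparison. The deposited values are UMI counts per gene and cell, not normalized. Per the file headers, cellranger 6.1.2 wrote 32 matrices and cellranger 7.1.0 wrote the pooled bone matrix. Cell Ranger, Seurat and mm10 are named without versions in the submitters' processing notes. Per the labels, samples were multiplexed with CellPlex and sequenced from the 3′ end. Samples of the same replicate number shared 0 cell barcodes, and 24 were shared over all other pairs of lung samples (at most 5 in a pair). The 8 lung samples held 4500782 to 24893464 UMIs.

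Cells were kept at 500 or more UMIs, 200 or more genes and at most 15% mitochondrial UMIs. The rule for members used Spp1, 5 alveolar macrophage genes and 1 further gene, and that gene and some listed genes are not reported here. The members and gene lists were chosen with earlier results of these data known. Doublets were not removed in the main values, and leaving out the top 5% of Scrublet scores (scanpy 1.11.5) was an alternative. Member counts were summed per sample (at least 10 members), filtered with filterByExpr, scaled with TMM and tested with edgeR 4.0.16 in R 4.3.3 (glmQLFit and glmQLFTest, Benjamini-Hochberg adjustment over all genes, FDR 0.05); DESeq2 1.42.0 was an alternative. The script was tested on simulated data. Shares and per-cell measures were compared with an exact two-sided permutation test over samples. The differences from other gates used CPM with a prior count of 1. Thinning drew 2000 UMIs per cell, and shallower cells were left out. Floors use 3 counts and binomial intervals 95%, and both cover counting error only.

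Genes named between the sorts were listed genes past FDR 0.05, and up to 12 genes per direction past FDR 0.05 with groups that did not overlap; listed genes that did not overlap were named after their values were seen. Against other gates, named genes came from the 12 highest and 12 lowest medians among genes in at least 20% of either set with the same sign in every sample. Levels could be named for listed genes in at least 10% of members. Of the listed symbols, Clec7a, Ero1a and Mx1 had no match in the files. Other settings tried were the limits of the rule, the filters, the scaling, the replicate number as a block and leaving out each sample.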

Additional observations from a re-analysis of the deposited data

Results flagged for a closer look

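In each group of 4 lung samples the sample farthest from the others was compared with the spread of its group by Dixon's criterion, and 4 of 42 groups examined held a sample beyond the 95% limit. Chance alone gives about 1 in 20 groups. The member share of negative 4, 1.62% of kept cells, was above that of the other 3 negative samples (0.435% to 0.635%). The share of thinned members with Ppbp was 41.3% in positive 1 and 11.8% to 14.9% in the other positive samples. The share of thinned members with Itga2b was 0.660% in positive 1 and 0% in the other 3, where any value above 0 passes the limit; unthinned it was 1.30% in positive 1 and 1.57% in positive 2. Cxcl16 reached 187 CPM in the members of positive 2, with 145 to 151 in the other positive samples.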

How the results depend on the processing

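The difference in member share (5.15 percentage points, exact p = 0.0571) kept its direction in all 18 alternatives and fell below 0.05 in 5 of them: a looser limit for the further gene of the rule (5.48), alveolar macrophages out of the denominator (12.03), thinning to 2000 UMIs (3.67), and edgeR on cell numbers (log2 fold 2.87, p = 0.00229), also with a replicate block (2.76, p = 0.00748). Sign flips over same-numbered samples gave an exact permutation p = 0.125, the smallest possible there. Leaving out 1 sample gave 3.80 to 6.66. Unthinned, the differences in members with Pf4 (21.1 points), C1qa (19.6) and Trem2 (22.2) had an exact permutation p = 0.0286. Those in Mrc1 and Ppbp were 31.2 and 12.4 points unthinned (exact permutation p = 0.0571 and 0.371), against 18.3 and 5.37 thinned. The difference in mitochondrial percent (0.179) turned to -0.137 without positive 1 and -0.0511 without negative 3, and that in Ppbp (5.37) to -1.61 without positive 1. Leave-one-out ranges were 2707 to 4865 for median UMIs, 372 to 798 for genes, -0.137 to 0.429 for mitochondrial percent, and in points 19.4 to 36.8 for Pf4, 8.51 to 16.4 for C1qa, 12.8 to 26.2 for Mrc1, 10.8 to 22.1 for Trem2, -25.2 to -9.11 for Ccr2, -1.61 to 11.5 for Ppbp and 0 to 0.220 for Itga2b.

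The count of genes called between sorts (1) was 1 with upper quartile scaling, 2 with DESeq2 (Lpl and S100a11), 98 with no filter on low counts, and 0 with at least 20 members (3 positive samples against negative 4 alone, which is assumed to vary like the others), without high Scrublet scores, with thinned members, with the stricter rule (2 negative samples left) and in each of the 8 leave-one-out fits. For the 0 counts edgeR gave 69 to 712 genes at an unadjusted p under 0.05. The cause of these differences was not tested. With the replicate number as a block 22 genes were called, 9 higher and 13 lower. The same-numbered samples deviated together with correlations of 0.364, 0.393, 0.0447 and 0.367, and the highest among other pairs was 0.169. Number 3 thus did not show a pairing, and the labels name none. The multiplexing tags followed the number, with 1 set for number 1, 1 for number 2 and 1 for numbers 3 and 4. Over the 32 intracardiac samples, 0 of 112 same-numbered pairs shared a cell barcode, against 182 of 384 other pairs. What the number stands for was not tested. With the block 14 listed genes passed: Lpl, Ctsb, Prdx1, Ms4a7, Cd36 and Timp2 higher, and Inhba, Plac8, Vcan, Hp, F10, Il1b, Cd14 and Cxcl2 lower (log2 -2.47 to 3.62). Of the 8 samples, 4 held only 12 to 17 members.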

Other observations

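One member stood apart in osteoclast-type genes, which were looked at after their values were seen. A single cell of positive 4 with 37357 UMIs held 749 of the 759 Ctsk UMIs (98.7%) of that sample's members. Ctsk encodes cathepsin K, the collagen-degrading protease of osteoclasts. The same cell held 760 Acp5 UMIs (tartrate-resistant acid phosphatase), 337 Mmp9 UMIs, 18 of the fusion gene Dcstamp and 9 of Ocstamp. It carried 23 Spp1 UMIs and no UMI of Pf4, C1qa, C1qb or C1qc. In positive 2, 10 of 127 members had at least 10 Ctsk UMIs, with a median of 1 Pf4 UMI against 118 in the other members of that sample; in negative 2 the 1 such member had 44 against a median of 0. Ctsk was also detected in 64.1% of the alveolar gate cells, which were most numerous in positive 2, against 13.6% of members (23.05% without positive 1). Atp6v0d2, a proton pump subunit gene of osteoclasts and other macrophages, was detected in 35.4% of the members of positive 2 and 3.91% of those of positive 1.

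Across tissues, UMIs of 3 tissue macrophage genes were found in some of the cells that met the same rule. The Kupffer cell gene Clec4f was detected in 13.5% of such cells in liver, 9.68% in bone and 8.32% in lung, at 208 CPM in liver, 14.7 in bone and 13.5 in lung, and Cd5l in 11.5%, 12.9% and 9.68%. Vcam1 was detected in 26.9% of those in bone, 13.8% in lung and 11.98% in liver. These bone values are of the 93 cells of the intracardiac samples, and the 331 cells of the pooled bone sample had Clec4f in 0%, Cd5l in 1.21% and Vcam1 in 7.85%. No background share was taken for these genes, so a UMI is not read as expression, and no test was made between tissues.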
